A study of Mus musculus with 12 samples.

Results

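Cells of MC38 tumors that carried transcripts of Cd209a, a C-type lectin of the DC-SIGN family, together with Flt3, the growth factor receptor of dendritic cells (DCs), were picked from a single-cell RNA-Seq matrix of all libraries. A barcode was taken if it held at least 2 unique molecular identifiers (UMIs) of Cd209a and at least 1 of Flt3, at most 1 of Fscn1, and none of Xcr1, Clec9a, Epcam, Siglech, Cd3d, Cd3e or Cd3g. It also had to have more than 200 and fewer than 5000 genes, with no more than 10% of its UMIs from mitochondrial genes. This rule took 54 of the 128912 barcodes within those limits, or 0.0419% (exact 95% interval 0.0315 to 0.0547%). As measured values chose these cells, their Cd209a and Flt3 counts and the absence of the other 7 genes are descriptions. All intervals given are exact, at 95%, and cover counting error only.

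The tumors grew from MC38 colon carcinoma cells placed under the skin of C57BL/6 mice, and the CD45+ fraction was enriched with magnetic beads. Mice in 2 groups received the EZH2 inhibitor (EZH2i) PF-06821497 at 100 mg/kg and mice in 2 groups received vehicle, and either arm was treated for 7 or for 16 days. Each of the 4 groups held 3 mice, and all tumors were collected on day 17. The 12 libraries came as 1 matrix whose barcodes carry a library number from 1 to 12, which no label ties to a mouse, so EZH2i was not compared with vehicle in these cells and the pooled cells stand as 1 sample with no replicate test. Every mouse carried the same implanted tumor line, and the bead step leaves any CD45+ cell of tumor or blood in the sample.

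DCs take up antigen, load its peptides onto MHC class II and show them to CD4 T cells. Conventional DCs fall into a type 1, which needs Irf8 and Batf3, carries Xcr1 and Clec9a and cross-presents to CD8 T cells, and a type 2, which depends in part on Irf4 and carries lectins such as Clec10a. Monocytes that enter inflamed tissue or tumors can also take on Cd209a, MHC class II and other features of type 2 DCs while keeping monocyte genes such as Fcgr1 and Csf1r.

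The Cd209a+ Flt3+ cells came from 11 of the 12 libraries. Libraries 1 to 12 held 5, 7, 2, 13, 9, 3, 2, 6, 1, 0, 3 and 3 of them in that order. Their share of the barcodes kept was 0 to 0.115% with a median of 0.0488%, and it was highest in library 4. Library 10 had 0 of 4083 barcodes, which allows a share of up to 0.0735% by the limit of 3 counts and of up to 0.0903% by the exact interval. Library 4 thus gave 24.1% of all these cells.

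**Figure D1:**
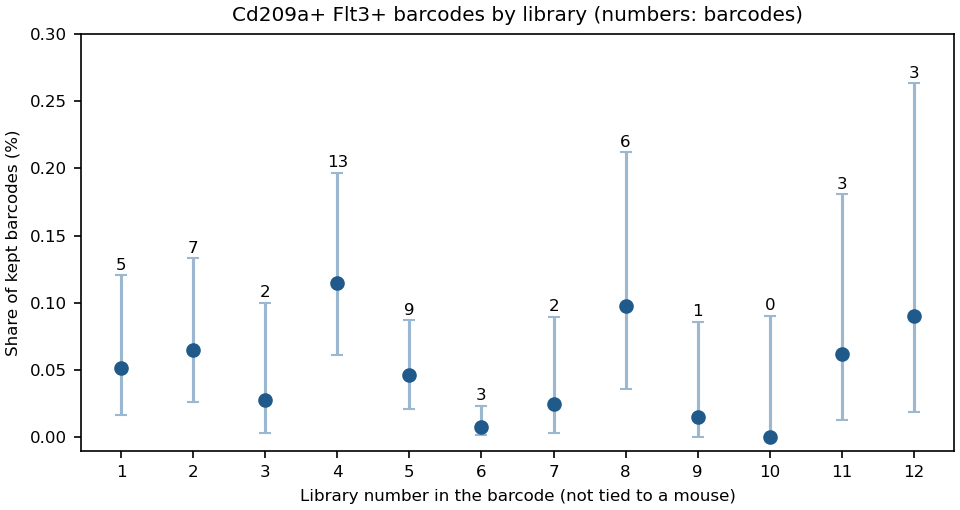
Share of kept barcodes (%) that met the Cd209a and Flt3 rule in each of the 12 libraries, with the number of such barcodes above each exact 95% interval. Library 4 stands highest at 0.115% and library 10 at 0, and the interval of library 6 ends below those of libraries 2, 4 and 8.

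The cells held 973 to 30597 UMIs (median 6523) from 614 to 4921 genes (median 2147), and mitochondrial UMIs made up 1.74 to 7.07%. In all they held 440587 UMIs, of which the largest cell gave 6.94%. Levels are given as counts per 1000000 UMIs (CPM), from UMIs summed over cells, a scale on which 1 UMI of these cells is 2.27 CPM. Library totals ran from 21649947 to 158760328 UMIs, with 2291 to 15081 UMIs in the median barcode. UMIs of the Y-linked genes Ddx3y, Eif2s3y, Kdm5d and Uty were present in libraries 1 to 6 (128 to 209 CPM) and at 0 in libraries 7 to 12, which held 39 and 15 of the Cd209a+ Flt3+ cells. Xist UMIs were in all 15 of the cells of libraries 7 to 12 and in none of the 39 of libraries 1 to 6. The methods of the study name female mice, with which the Y-linked UMIs are at odds, and the part of that difference in the results was not tested. Of the kept barcode sequences, 3775 were found in more than 1 library, among them 2 of the cells described here but no pair of them.

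The cells were set beside 3 other populations picked by counts in the same matrix. Type 1-like DCs were 414 barcodes with at least 2 UMIs of Xcr1 and Clec9a together, 1 of Flt3 and none of Cd209a. Mature DCs were 866 barcodes with at least 2 UMIs of Fscn1, an actin-bundling protein of DC dendrites, and 1 of Ccr7, the receptor that guides DCs to lymph nodes. Ly6c2-high monocytes were 1941 barcodes with at least 4 UMIs of Ly6c2 and none of Flt3, Cd209a or C1qa. All 3 populations also had no UMI of Cd209a, Epcam, Siglech, Cd3d, Cd3e or Cd3g. Their median UMI counts were 7244, 4575 and 4259. For background from free RNA, 4082 T cells with a median of 2316 UMIs were used. They had at least 2 UMIs of Cd3d, Cd3e and Cd3g together and none of Flt3, Csf1r, C1qa or Cd209a. As T cell barcodes with stray UMIs of these 4 genes were left out, the background may be understated. The cells of each population come from the same libraries and are not replicates, so ratios between populations are descriptions with counting intervals. The mix of libraries differed, however. Library 4 held 13 of the 54 Cd209a+ Flt3+ cells, 24 of the 414 type 1-like DCs and 220 of the 1941 monocytes. For library 6 these counts were 3, 117 and 106. Pooled ratios thus mix population with library, which only the values within libraries keep apart.

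The label was checked first. Cd209a lies at chr8:3743397-3748984 on the minus strand (GRCm38), and its counts were 2 to 33 UMIs with a median of 5, with 9 cells at the minimum of 2 and 11 cells at 10 or more. Flt3 (chr5:147330741-147400489, minus strand) had a single UMI in 39 of the cells and 2 or more in 15, with at most 4. The rule therefore rests on a single Flt3 molecule in most cells. H2-Ab1, the beta chain of the I-A molecule (chr17:34257689-34269419, plus strand), was not used by the rule and had a UMI in 52 of the 54 cells (96.3%), at 0 to 437 UMIs with a median of 41.5. In T cells 32.9% had an H2-Ab1 UMI, and with every cell thinned to 1000 UMIs the shares were 93.9 and 17.6% (1 of the 54 cells and 467 of the T cells were too shallow and left out). Zbtb46, a transcription factor of conventional DCs, was sparse. It had 4 UMIs in 4 cells (9.08 CPM), beside 22.7 CPM in the type 1-like DCs, 64.1 CPM in the mature DCs and 0.373 CPM in the monocytes. As 3 UMIs are 6.81 CPM, so few UMIs do not settle its place below the type 1-like DCs. The 15 cells with 2 or more Flt3 UMIs had none. The Fc receptor Fcgr1 or the receptor Csf1r, both genes of monocytes and macrophages, had a UMI in 41 of the 54 cells (75.9%). Because genes of both kinds were seen, the name of a conventional DC is not used, and the cells are called Cd209a+ Flt3+ cells.

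Genes of MHC class II stood near the level of the type 1-like DCs and above that of the monocytes. The promoters of the class II genes share a set of short boxes, of which the Y box holds the letters TGATTGG or, on the other strand, CCAATCA, and is bound by the factor NF-Y next to the complex that recruits the transactivator Ciita. RefSeq (GRCm38.p6) gave a promoter for 9 of the 12 genes listed for class II presentation, and these letters were present in the 250 bases before the start site of 6 of the 9, at 45 to 92 bases before it. In all mouse promoters of that table, 2375 of 32851 (7.23%) held them on either strand, with no other motif searched. Of the 6 genes, H2-DMb2 and H2-Oa are not shown. H2-DMa, which was higher in the Cd209a+ Flt3+ cells than in the mature DCs, held the letters in neither promoter. A link of the letters to RNA levels was not tested. Shown here, 5′ to 3′ along each gene from 130 to 11 bases before its start, are windows of the other 4 genes, with the Y box letters in capitals. They come from chr17:34287834-34287953 (minus strand), chr17:34305737-34305856, chr17:34153061-34153180 and chr17:34238775-34238894 (plus strand), and the box lies 50, 61, 63 and 59 bases before the start.
H2-Aa: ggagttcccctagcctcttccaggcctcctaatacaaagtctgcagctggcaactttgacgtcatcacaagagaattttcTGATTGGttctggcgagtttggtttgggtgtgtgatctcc
H2-Eb1: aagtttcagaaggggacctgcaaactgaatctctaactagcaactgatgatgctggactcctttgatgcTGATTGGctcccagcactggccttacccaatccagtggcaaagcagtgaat
H2-DMb1: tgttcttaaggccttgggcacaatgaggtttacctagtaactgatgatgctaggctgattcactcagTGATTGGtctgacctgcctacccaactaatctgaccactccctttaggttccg
H2-Ob: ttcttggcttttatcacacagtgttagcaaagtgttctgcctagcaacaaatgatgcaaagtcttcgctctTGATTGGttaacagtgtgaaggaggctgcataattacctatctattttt
The letters are a description of these windows and not a measured site.

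Cd74, the invariant chain that guides class II molecules to the endosome, was the second most abundant transcript of the Cd209a+ Flt3+ cells among those that are not ribosomal, mitochondrial or noncoding, at 15105 CPM beside 12970 CPM in the type 1-like DCs, 6859 CPM in the monocytes and 4527 CPM in the mature DCs. H2-Ab1 was at 8423 CPM (8154 to 8698 CPM), beside 7998, 3376 and 1506 CPM in the same order. In the libraries with at least 5 of the cells, numbers 1, 2, 4, 5 and 8, the H2-Ab1 level was 6861, 9729, 6271, 7877 and 10291 CPM. Every one of these 5 libraries was above its own monocytes, and 3 of the 5 were above their own type 1-like DCs. H2-Aa, the alpha chain, was 1.24-fold (1.20 to 1.29) the type 1-like level and 2.60-fold (2.51 to 2.69) that of the monocytes, and H2-Eb1, the beta chain of I-E, was at 7308 CPM beside 6333 and 2519 CPM.

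Ciita, which switches these genes on, was at 188 CPM in the Cd209a+ Flt3+ cells, at 99.1 CPM in the type 1-like DCs and at 52.0 CPM in the monocytes. The peptide exchange factor subunits H2-DMa and H2-DMb1 were at 788 and 892 CPM, 1.03 and 1.31 times the type 1-like level. H2-Oa, a subunit of the inhibitor of that exchange factor, was 13.9-fold (9.38 to 20.4) the monocyte level at 99.9 CPM. Ctss, the protease that trims the invariant chain, ran the other way, at 1791 CPM beside 792 CPM in the type 1-like DCs and 3479 CPM in the monocytes.

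A gene counts as higher or lower here if its summed CPM differed at least 2-fold, among genes with a mean of at least 20 CPM over both populations that neither rule had used. Against the type 1-like DCs 5206 genes met this minimum, of which 657 were higher (12.6%) and 358 lower (6.88%) in the Cd209a+ Flt3+ cells. Against the monocytes 350 of 5137 were higher (6.81%) and 334 lower (6.50%). Against the mature DCs 739 of 5265 were higher (14.0%) and 559 lower (10.6%). Of 11 class II presentation genes, 1 was higher than in the type 1-like DCs (Ctss), 8 were higher than in the monocytes and 10 higher than in the mature DCs, and none was lower in any of the 3. The list's median log2 ratio was 0.22, 1.38 and 1.89, where that of all genes tested was 0.10, 0.06 and 0.14. With a single pooled sample these counts carry no test, and the counts of later lists are to be read beside the same shares over all genes.

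**Figure D2:**
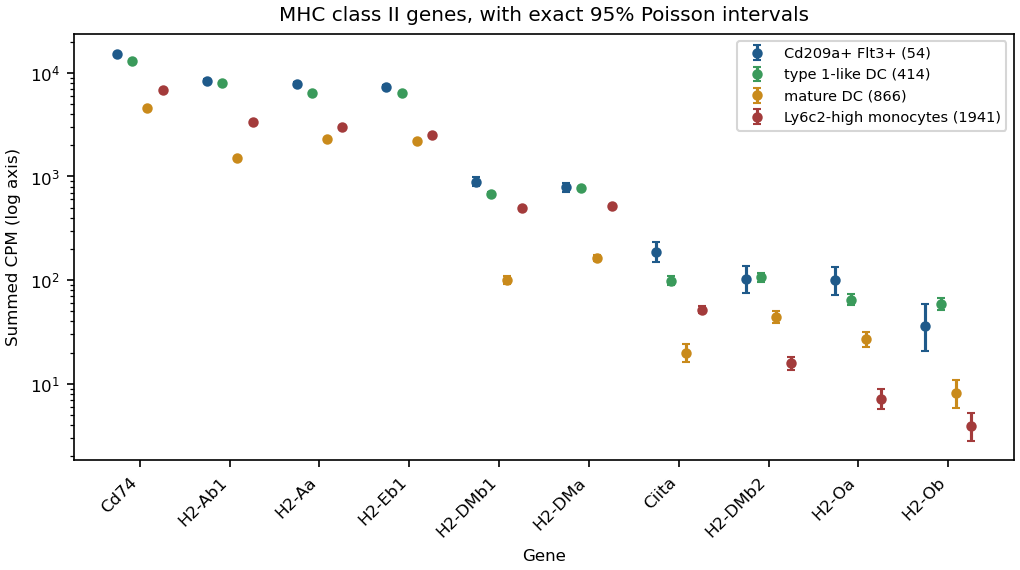
Summed CPM on a log axis of 10 MHC class II genes in the Cd209a+ Flt3+ cells (54), type 1-like DCs (414), mature DCs (866) and Ly6c2-high monocytes (1941), with exact 95% Poisson intervals. The Cd209a+ Flt3+ cells lie beside the type 1-like DCs for the most abundant genes, from 15105 CPM for Cd74 down, and above the monocytes for all 10.

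Lectins other than the one in the rule had some of the widest ratios to the other populations. Clec10a, a receptor for galactose and N-acetylgalactosamine and a marker of type 2 DCs (chr11:70156197-70170834, plus strand), was at 511 CPM (446 to 582 CPM), with 225 UMIs in 38 of the 54 cells. Its level was 20.02 CPM in the type 1-like DCs, 13.9 CPM in the monocytes and 7.14 CPM in the mature DCs, which makes ratios of 25.5 (19.6 to 33.5), 36.8 (29.8 to 45.5) and 71.5. A Clec10a UMI was found in 70.4% of the cells and in 1.96% of the T cells, or in 37.5 and 0.995% after thinning. In libraries 1, 2, 4, 5 and 8 the level was 147, 318, 238, 428 and 590.2 CPM, in each case above both the type 1-like DCs and the monocytes of that library. It was 315 CPM in libraries 1 to 6 and 769.5 CPM in libraries 7 to 12.

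Mgl2 (chr11:70130329-70137550, plus strand), the neighbor and paralog of Clec10a, was at 166 CPM in 17 cells, 4.40-fold (3.27 to 5.87) the type 1-like level and 7.14-fold (5.42 to 9.30) that of the monocytes. The transcripts of this pair share 419 stretches of 31 bases, 13.7% of those of Clec10a and 19.3% of those of Mgl2, so some reads could not be told apart between them. One or the other was seen in 42 of the 54 cells and both in 13.

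Cd209d and Cd209e, which lie in the same gene cluster as Cd209a (chr8:3871824-3878555 and chr8:3847965-3854309, minus strand), were at or near 0 in the populations set beside these cells. Those populations were all chosen without Cd209a, so part of the ratios below may be set by the rules. Cd209d was at 184 CPM in 14 cells and Cd209e at 72.6 CPM in 9 cells. Either was seen in 20 of the 54 cells (37.0%) and both in 3. In the 249 barcodes that met the rule but for Flt3, Cd209d was at 211 CPM and Cd209e at 56.2 CPM. Neither was therefore particular to the cells with Flt3. In the type 1-like DCs both were at 0, so that with 3 counts as the floor over that population Cd209d was at least 233-fold and Cd209e at least 91.9-fold higher. The monocytes held 3 UMIs of Cd209d (ratio 657, 217 to 3254) and 0 of Cd209e (at least 260-fold higher). Of the Cd209d UMIs 43.2% came from 1 cell of library 2, and libraries 1, 2, 4, 5 and 8 were at 0, 735, 106, 23.8 and 152 CPM. Without library 2 Cd209d was at 113 CPM, and Cd209e kept 16 of its 32 UMIs. No stretch of 31 bases was shared between the transcripts of Cd209a and those of Cd209b, Cd209c, Cd209d, Cd209e or Cd209f.

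Over the list of C-type lectins, 12 of the 15 genes that met the minimum were higher than in the type 1-like DCs and 1 was lower (Ly75, an endocytic receptor of type 1 DCs, at 0 UMIs and at least 8.05-fold lower). Over all genes 12.6% were higher and 6.88% lower. Against the monocytes 6 of 14 were higher, namely Cd209d, Cd209e, Clec10a, Mgl2, Clec4b1 and Mrc1, where 6.81% of all genes were. The 3 lower ones (6.50% over all genes) were Clec4d, Clec4e and Clec5a, receptors of myeloid cells for microbial glycolipids and other ligands. Clec4b1 was at 70.4 CPM beside 3.16 CPM in the type 1-like DCs and 4.47 CPM in the monocytes. Mrc1, the mannose receptor, was at 116 CPM beside 31.9 and 44.2 CPM. Without the cells of 16 or more C1qa UMIs, described below, it was at 67.6 CPM and no longer counted as higher than in the monocytes. The same held for Mrc1 in libraries 7 to 12.

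Of 8 genes known from type 2 DCs, 5 were higher than in the type 1-like DCs and none was lower, where 12.6 and 6.88% of all genes were. The median log2 ratio was 2.25 beside 0.10 for all genes. Besides Clec10a and Mgl2 these were Sirpa, the receptor for the don't-eat-me signal CD47 (218 beside 38.2 CPM), Itgam, which encodes CD11b (149.8 beside 29.0 CPM), and Irf4 (52.2 beside 2.37 CPM). Against the monocytes 3 of 8 were higher, Clec10a, Mgl2 and Irf4, and Itgam was lower (349 CPM in the monocytes). Over all genes 6.81% were higher. The list's median log2 ratio to the monocytes was 0.05, beside 0.06 for all genes, so the list as a whole did not stand above them. Sirpa was at 203 CPM in the monocytes (ratio 1.07, 0.867 to 1.32). Esam, an adhesion molecule of a splenic type 2 subset, was at 0 UMIs.

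Of 18 transcription factors of DC development, 7 were higher and 3 lower (Irf8, Id2 and Batf3) than in the type 1-like DCs. Against the monocytes 3 of 19 were higher and 4 lower. Over all genes 12.6% were higher and 6.88% lower than in the type 1-like DCs, and 6.81 and 6.50% than in the monocytes. Of 10 genes shared by conventional DCs, 1 was higher (Bcl11a), near the 12.6% over all genes, and 2 were lower (Id2 and Kit) than in the type 1-like DCs. Against the monocytes 5 of 9 were higher (Bcl11a, Dpp4, Cd74, Ciita and H2-Ab1) and none lower, where 6.81 and 6.50% of all genes were. The median log2 ratio was 1.14 beside 0.06 for all genes. Cd74, Ciita and H2-Ab1 are also on the class II list. Against the mature DCs 5 of 11 were higher and 3 lower (Zbtb46, Relb and Id2), where 14.0 and 10.6% of all genes were. Bcl11a, which DC and B cell precursors need, was at 113 CPM in 21 cells, 9.36-fold (6.15 to 14.3) the type 1-like level and 16.2-fold (11.1 to 23.5) that of the monocytes. T cells stood at 1.65 CPM. Tcf4, known from plasmacytoid DCs and their precursors, was at 238 CPM in 41 cells, beside 59.5 and 127 CPM. Siglech had to be absent by the rule. Of the other plasmacytoid genes listed, Bst2, which interferon also induces, was at 722 CPM in 45 cells beside 491 and 945 CPM, Ly6d, Pacsin1 and Klk1 were at 0 UMIs, and the rest had at most 4 UMIs.

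All 9 genes of the type 1 DC list that met the minimum were lower than in the type 1-like DCs (6.88% over all genes), as the rules for both populations favor. Irf8, the factor of type 1 DCs, was at 125 CPM beside 1156 CPM (9.26-fold lower) and Batf3, its partner, at 63.6 beside 157 CPM. Naaa and Wdfy4, the second of which is needed for cross-presentation, were at 179 and 88.5 CPM beside 1007 and 501 CPM. Itgae, which encodes CD103, had 1 UMI in the Cd209a+ Flt3+ cells (ratio 0.00592, 0.00015 to 0.0331), and Tlr3, the sensor of double-stranded RNA, had 2 (ratio 0.0200, 0.00242 to 0.0724). Cst3, the protease inhibitor cystatin C, was in every cell at 3232 CPM beside 23833 CPM.

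Among genes of at least 100 CPM, those with the widest ratios over the type 1-like DCs were S100a4, Cd300a, Clec10a, Tmem176a, Wfdc17, Ccl9, S100a6, Ccl8, Tmem176b and Ms4a4c. S100a4, a calcium-binding protein of motile cells, was at 2969 CPM in 51 of the cells beside 76.4 CPM in 17.6% of the type 1-like DCs (38.9-fold, 34.2 to 44.3). Monocytes stood at 2264 CPM and T cells at 1255 CPM with a UMI in 63.4%. Cd300a, an inhibitory receptor for phospholipids, was at 325 CPM, 26.8-fold (19.1 to 38.2) the type 1-like level, with 94.3 CPM in the monocytes and 6.73 CPM in the T cells. Its level was 183, 159, 123, 357 and 666 CPM in libraries 1, 2, 4, 5 and 8, all above both populations of the same library.

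The channel-like Tmem176a and Tmem176b were at 384 and 397 CPM, beside 22.4 and 40.3 CPM in the type 1-like DCs and 88.6 and 117 CPM in the monocytes, and near the 396 and 366 CPM of the mature DCs. These genes and Ms4a4c were higher than the type 1-like DCs in all 5 libraries. Wfdc17 was at 2077 CPM but at 1040 CPM without library 4, as 45.7% of its UMIs came from 1 cell. The other end of the same list held Itgae, Tlr3, Plet1, Ppt1, Ncoa7, Egr3, Qpct, Pclaf, Irf8 and Cst3, of which Pclaf, a replication factor, was at 22.7 beside 216 CPM, with 80.0% of its UMIs in 1 cell and 5.96 CPM without library 8.

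Transcripts of the cell cycle were few in the Cd209a+ Flt3+ cells. Against the type 1-like DCs 16 of 17 cycle genes were lower and none was higher, where 6.88 and 12.6% of all genes were. At least 5 cycle genes were seen together in 3 of the 54 cells (5.56%), in 42.0% of the type 1-like DCs, in 7.27% of the mature DCs and in 1.34% of the monocytes. Of the 207 cycle UMIs 129 (62.3%) came from 1 cell of library 8, the one with 30597 UMIs. With that cell included, 4 of 5 cycle genes were higher than in the monocytes, where 6.81% of all genes were. In libraries 1 to 6 a single cycle gene met the minimum and was not higher, and in libraries 7 to 12, which hold that cell, 7 of 8 were higher, where 8.13 and 11.6% of all genes were.

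Many monocyte genes were above the level of the type 1-like DCs and below that of the monocytes, while S100a4, also on the list, was above both. Of 13 listed genes 9 were higher than in the type 1-like DCs, and of 14 listed genes 10 were lower than in the monocytes, with none higher, at median log2 ratios of 1.39 and -1.47. Over all genes 12.6% were higher than in the type 1-like DCs and 6.50% lower than in the monocytes. Ms4a4c, a membrane protein of Ly6C+ monocytes, was in 50 of the 54 cells at 890 CPM, beside 92.0 CPM in the type 1-like DCs and 1349 CPM in the monocytes. Plac8 was in 49 cells at 1798 CPM beside 1059 and 4386 CPM. Ccr2, the receptor by which monocytes leave the marrow, was at 354 CPM beside 76.7 and 652 CPM.

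Fcgr1, the high-affinity IgG receptor CD64, was at 309 CPM in 30 cells beside 73.8 and 774 CPM, and Csf1r at 191 CPM in 29 cells beside 65.1 and 396 CPM. Both were seen in 18 cells and neither in 13, of which 9 had Clec10a. A Fcgr1 UMI was found in 3.14% of the T cells, and Csf1r had to be absent from them. Ly6c2 was at 95.3 CPM in 15 cells, above the 44.8 CPM of the type 1-like DCs but below the 411 CPM of the T cells. Library by library Fcgr1 was at 550.3, 179, 590.1, 95.2 and 66.6 CPM in libraries 1, 2, 4, 5 and 8. Library 4 was the highest of these 5, and without it the level was 211 CPM, still 3.43 times that of the type 1-like DCs in the same libraries.

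Against the monocytes the widest ratios among genes of at least 100 CPM belonged to Clec10a, Ccl8, Klrd1, Fcgrt, C1qc, Ifitm1, C1qb, Etv3, Ckb and Fyn. The monocytes were chosen without C1qa, which bears on C1qb and C1qc. Klrd1, which encodes CD94 of NK and CD8 T cells, was at 406 CPM in 37 cells, 20.2-fold (16.5 to 24.7) the monocyte level of 20.1 CPM. Its T cell level was 429 CPM with a UMI in 44.2%, while the summed level of 5 other T cell markers was 4.54 CPM in 2 of the Cd209a+ Flt3+ cells (Trac, Trbc1 and Trbc2 at 0) beside 2785 CPM in the T cells. The summed level of 4 NK cell markers was 22.7 CPM in 2 cells, with Ncr1 and Klrb1c at 0, beside 1988 CPM in the T cells.

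Fcgrt, the neonatal Fc receptor, was 8.06-fold (6.26 to 10.3) and Ifitm1, an antiviral membrane protein, 5.03-fold (4.58 to 5.52) the monocyte level, and both were higher in all 5 libraries. Etv3, an ETS repressor, was at 311 beside 68.9 CPM, and Fyn, a Src family kinase, at 182 beside 40.9 CPM. The opposite end held Chil3, Cxcl3, S100a8, F10, S100a9, Slpi, Hp, Vegfa, Cxcl2 and Ly6i. Chil3, a chitinase-like protein of monocytes, was at 36.3 beside 1674 CPM (46.1-fold lower) and at 12.2 CPM without library 4, and Vegfa, the endothelial growth factor, at 25.0 beside 320.3 CPM (12.8-fold lower). The neutrophil alarmin S100a8 was at 22.7 beside 672 CPM, with 3.06 CPM (1 UMI) without library 4, and the summed level of 5 neutrophil markers was 70.4 CPM in 10 of the cells beside 1658 CPM in the monocytes. The part that neutrophil RNA in the monocyte barcodes has in the last ratio was not tested. B cell markers summed to 9.08 CPM in 4 cells, red blood cell markers to 2.27 CPM in 1, and 3 keratins of tumor cells and 4 mast cell markers were at 0.

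Genes of DC maturation were below the mature DCs, which were chosen by Fscn1 and Ccr7, and in part above the other populations. Against the mature DCs 11 of 14 were lower and none higher (median log2 ratio -2.18), where 10.6 and 14.0% of all genes were. Against the type 1-like DCs 5 of 11 were higher (Cd40, Cd80, Il4i1, Ccl5 and Marcksl1) and 1 lower, where 12.6 and 6.88% of all genes were. Against the monocytes 4 of 11 were higher (Ccr7, Cd83, Il4i1 and Ccl17) and 1 lower (Ccl5), where 6.81 and 6.50% of all genes were. Of the 64 Il4i1 UMIs 40 came from 1 cell of library 8, and its level of 145 CPM was 71.5 CPM without that library. Ccl5 was at 220.2 CPM, and at 123 CPM without library 11. Ccl22, a chemokine for regulatory T cells, was at 13.6 beside 1797 CPM, and Il12b, a subunit of IL-12, had 3 UMIs (ratio 0.0106). Ccr7 was at 54.5 CPM in 9 cells beside the 2089.8 CPM by which the mature DCs were in part chosen. Cd83, which stabilizes class II at the surface, was at 792 CPM, close to the 719.9 CPM of the mature DCs and 3.32-fold (2.96 to 3.72) the monocyte level. Cd86 and Cd40, the costimulators, were at 252 and 123 CPM beside 353 and 201 CPM. Of 9 costimulatory and checkpoint ligands, 5 were higher than in the type 1-like DCs and none lower, where 12.6 and 6.88% of all genes were. Of 11 against the mature DCs 1 was higher and 4 lower (Cd80, Cd70, Cd274 and Pdcd1lg2), where 14.0 and 10.6% of all genes were.

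**Figure D3:**
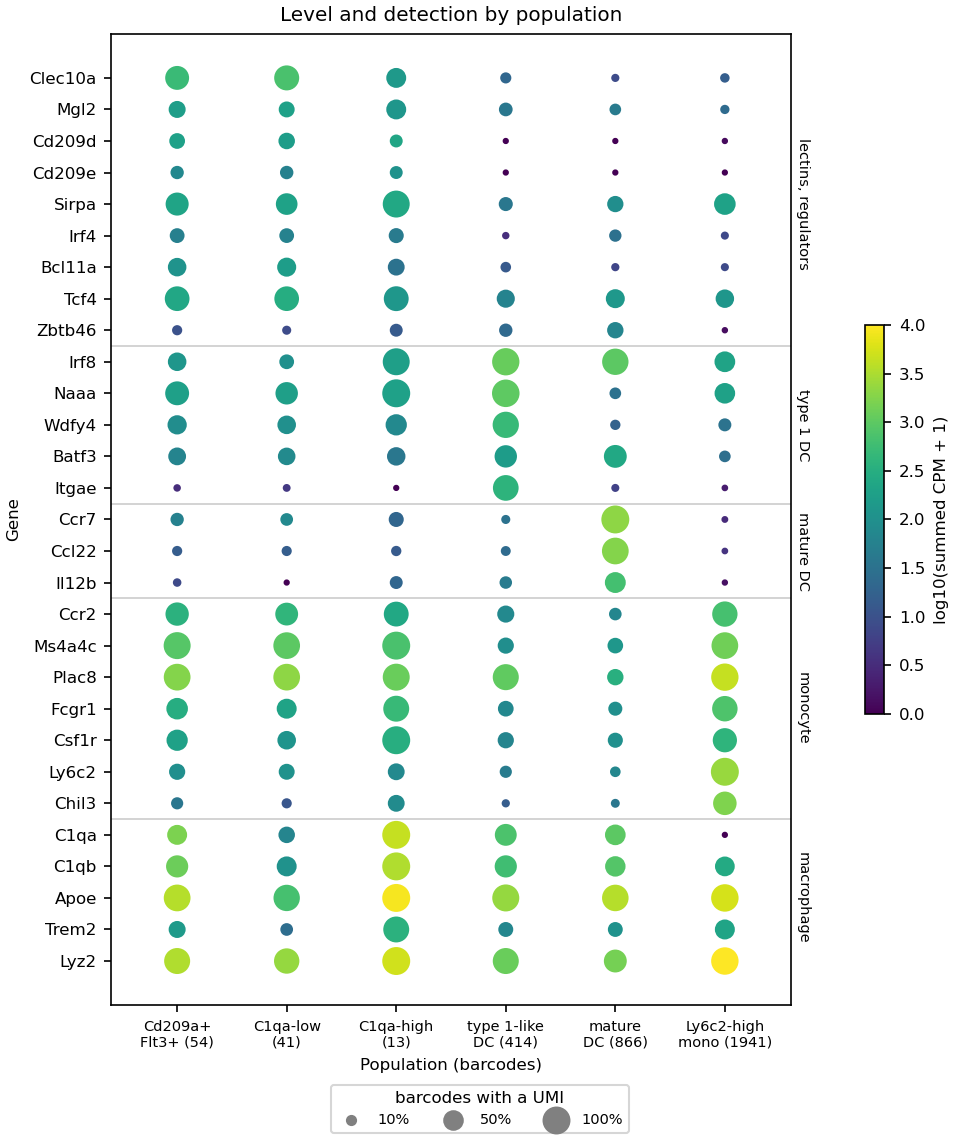
Level (color, log10 of summed CPM + 1) and share of barcodes with a UMI (dot area) for 29 genes in the Cd209a+ Flt3+ cells, their C1qa-low (41) and C1qa-high (13) cells, type 1-like DCs, mature DCs and Ly6c2-high monocytes. Clec10a, Cd209d and Bcl11a are highest in the Cd209a+ Flt3+ columns. The 7 monocyte genes shown lie between type 1-like DCs and monocytes over all 54 cells. Of these, Ly6c2 chose the monocytes, which sets its place below them, and Chil3 was at 12.2 CPM without library 4. The macrophage genes are in the main high in the 13 C1qa-high cells.

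The Cd209a+ Flt3+ cells were not uniform. C1qa, which encodes a chain of complement C1q and marks tissue macrophages, had 16 to 158 UMIs in 13 of them and 0 to 5 in the other 41, of which 29 were at 0, with no cell between. This division was chosen after the values were seen and carries no test, and a limit of 16 UMIs is easier to reach in deeper cells. The 13 C1qa-high cells had a median of 10347 UMIs and the 41 C1qa-low cells one of 4088. They held 97.5% of the C1qa UMIs and 36.2% of all UMIs of the population. They came from libraries 1, 2, 4, 5 and 7, with 1, 2, 5, 4 and 1 cells, and 12 of the 13 had a single Flt3 UMI.

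**Figure D4:**
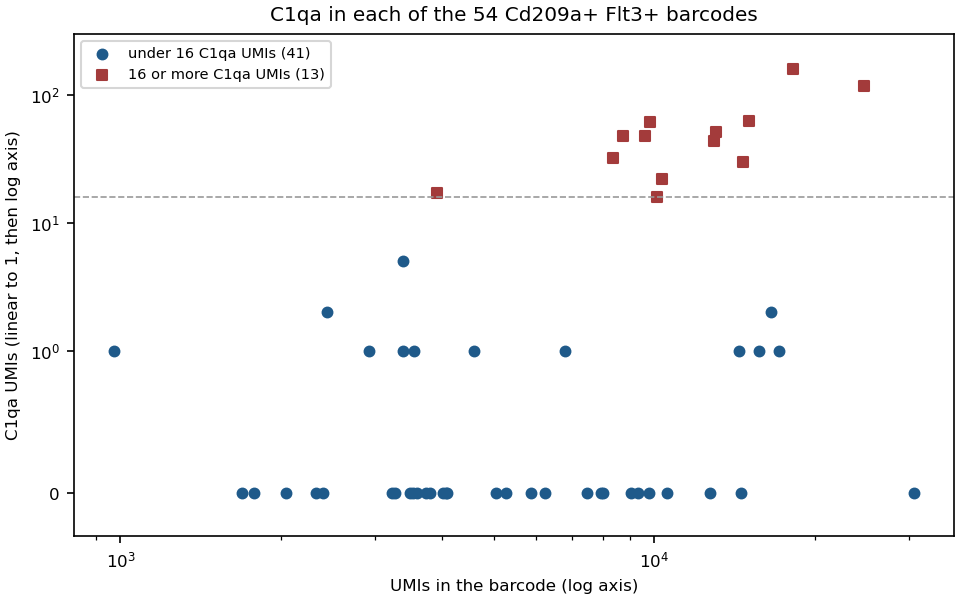
C1qa UMIs (linear to 1, then log axis) against all UMIs (log axis) in each of the 54 Cd209a+ Flt3+ cells, with a dashed line at 16. The 13 cells at or over the line hold 16 to 158 C1qa UMIs and the 41 under it at most 5, and the deepest cell, with 30597 UMIs, has none.

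The C1qa-high cells carried a wide set of macrophage genes. C1qb and C1qc, the other chains, were at 3337 and 2152 CPM beside 103 and 67.6 CPM in the C1qa-low cells. Apoe, the lipid carrier, was at 8745 beside 658 CPM, and Trem2, a lipid receptor of macrophages, at 364 beside 24.9 CPM. Adgre1, which encodes F4/80, was at 226 beside 28.5 CPM. The lysosomal proteases Ctsd and Ctsb were at 1706 and 2490.4 CPM beside 135 and 295 CPM. Fcgr1 and Csf1r were also higher, at 489 and 320 CPM beside 206 and 117 CPM. A C1qa count of 16 or more was found in 13.04% of the type 1-like DCs and in 11.4% of the mature DCs as well, so it was not particular to the Cd209a+ Flt3+ cells. Whether these barcodes hold RNA of more than 1 cell was not tested.

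The C1qa-low cells carried more of several DC genes. Clec10a was at 722 CPM in 32 of the 41 cells and at 138 CPM in 6 of the 13, Bcl11a at 160.0 and 31.4 CPM, and Tcf4 at 299 and 132 CPM. Cd74 and H2-Ab1 were at 18213 and 9681 CPM in the C1qa-low cells and at 9623 and 6204 CPM in the C1qa-high cells, so class II transcripts were abundant in both. Cd83 was at 1053 and 332 CPM, S100a4 at 3976 and 1192 CPM and Il1b at 4659 and 2289.7 CPM. Cd209a itself was at 1191 and 558 CPM. Other DC genes did not follow this order. Sirpa was at 199 CPM in the C1qa-low and 251 CPM in the C1qa-high cells. Itgax, which encodes CD11c, was at 107 and 176 CPM, and Id2 at 156 and 207 CPM. Cd209d was at 160.0 CPM in the C1qa-low cells (12 with a UMI) and at 226 CPM in the C1qa-high cells (2 with a UMI). In the latter, 35 of its 36 UMIs came from 1 cell. After thinning, the share with a Cd209d UMI was 11.1% in the C1qa-low and 7.96% in the C1qa-high cells.

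**Figure D5:**
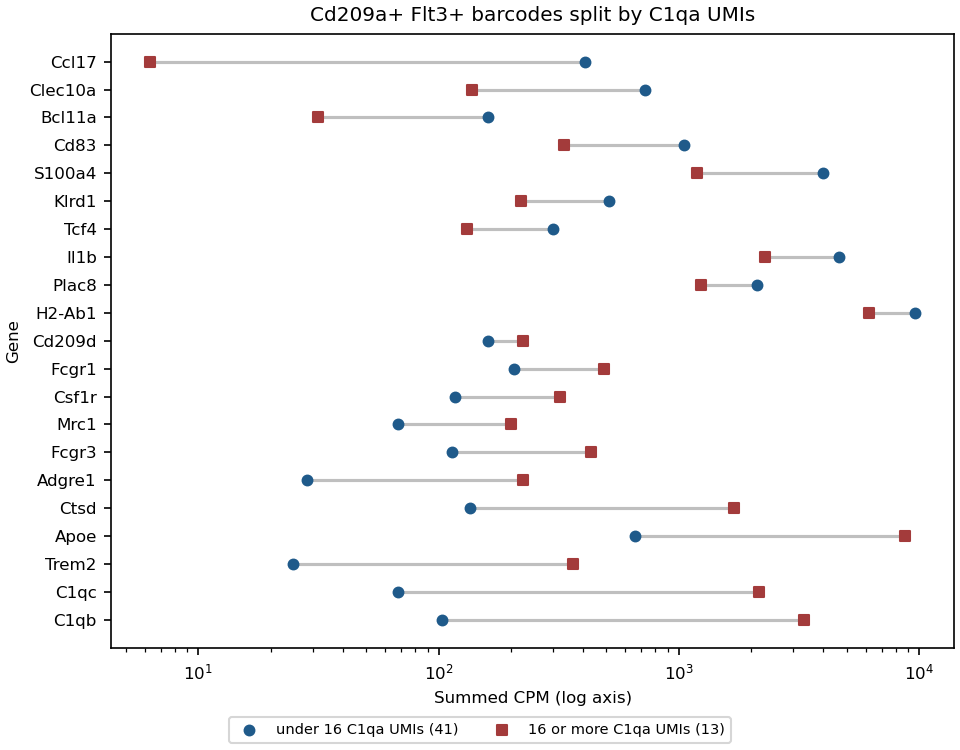
Summed CPM (log axis) of 21 genes in the 41 C1qa-low cells (circles) and the 13 C1qa-high cells (squares) of the Cd209a+ Flt3+ population, joined by a line for each gene. Clec10a, at 722 and 138 CPM, and Bcl11a lie higher in the C1qa-low cells, and Trem2 and Apoe, the latter at 658 and 8745 CPM, higher in the C1qa-high cells.

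Several counts given for the whole population rest on these 13 cells. C1qa chose them and is itself a macrophage gene, so part of the next counts is set by the split. They were left out of the Cd209a+ Flt3+ cells alone, while the type 1-like DCs kept their barcodes with 16 or more C1qa UMIs (13.04%). Calls of macrophage and related genes as lower than in the type 1-like DCs are therefore in part set by this too. With them, 6 of 10 macrophage genes were higher than in the type 1-like DCs and none lower. Without them 1 was higher and 5 lower, and without library 4, which held 5 of them, 3 of 10 were higher and none lower. Over the 7 macrophage genes other than those of C1q, the counts were 4 higher and none lower with the 13 cells, and 1 higher (Mrc1) and 2 lower (Apoe and Trem2) without them. The shares over all genes moved too: in the C1qa-low cells 13.9% were higher and 8.88% lower than in the type 1-like DCs, and 10.1% higher and 10.8% lower than in the monocytes. Cathepsins and legumain went from 7 higher of 9 to 2 higher and 1 lower (4 higher and none lower without library 4), and against the monocytes from none beyond 2-fold to 6 of 9 lower. For monocyte genes the count over the type 1-like DCs was 6 higher and 1 lower of 12 in the C1qa-low cells, so genes such as Ms4a4c (992 CPM), Ccr2 (413 CPM) and Fcgr1 (206 CPM) stayed above the type 1-like level. For class II genes it was 9 higher and 1 lower of 11 against the monocytes. Libraries 1 to 6 held 12 of the 13 C1qa-high cells.

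Of the chemokines, Ccl8 shows how much 1 cell can weigh. It was at 1752 CPM, 32.2-fold the monocyte level, but 693 of its 772 UMIs (89.8%) came from a single C1qa-high cell of library 4 with 158 C1qa UMIs, and without that cell it was at 187 CPM and without library 4 at 223 CPM. Ccl17, which attracts T helper cells, was at 261 CPM with 112 of 115 UMIs in 4 cells, and library 1 was at 2678 CPM, without which the level was 102 CPM. Cxcl10, induced by interferon and an attractant of CXCR3+ T cells, was in 22 cells at 683 CPM, and at 2678, 774, 52.8, 1285 and 9.52 CPM in libraries 1, 2, 4, 5 and 8. Without library 11 it was at 447 CPM. Cxcl9, with the same receptor, was at 359 CPM, at 235 CPM without library 1 and at 0 in library 4. Among the libraries these levels thus did not share a common range. Of 15 chemokines 6 were higher and none lower than in the type 1-like DCs, where 12.6 and 6.88% of all genes were. Against the monocytes 2 of 16 were higher and 7 lower, where 6.81 and 6.50% of all genes were.

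Il1b, the inflammatory cytokine interleukin-1 beta, was among the 15 most abundant transcripts, at 3802 CPM in 50 of the 54 cells beside 855 CPM in the type 1-like DCs and 4926 CPM in the monocytes. In libraries 1, 2, 4, 5 and 8 it was at 5063, 2522, 2995, 3355 and 5693 CPM, each above the type 1-like DCs of that library. Osm and Tgfb1, a cytokine of the IL-6 family and TGF-beta, were at 204 and 291 CPM beside 29.5 and 130.4 CPM. Of 8 cytokines 4 were higher and 1 lower (Il12b) than in the type 1-like DCs, where 12.6 and 6.88% of all genes were. Against the monocytes 1 was higher and 4 lower, where 6.81 and 6.50% of all genes were. Of 6 chemokine receptors 5 were higher than in the type 1-like DCs (12.6% over all genes), among them Cxcr4 (213 beside 58.8 CPM).

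Of 7 sensors, 5 were higher and 1 lower (Tlr3) than in the type 1-like DCs, where 12.6 and 6.88% of all genes were. Against the monocytes none was higher and 3 were lower, Tlr2, Tlr13 and Cd14, the co-receptor for lipopolysaccharide (395 beside 1973 CPM). Over all genes 6.81% were higher and 6.50% lower than in the monocytes. Interferon-stimulated genes were higher than in the type 1-like DCs for 9 of 16 and lower than in the monocytes for 4 of 17, with none the other way in either. Over all genes these shares were 12.6 and 6.50%. For MHC class I presentation 2 of 13 genes were lower than in the type 1-like DCs (Tap2 and Psmb9), beside 6.88% over all genes. None differed 2-fold from the monocytes. Of 13 immediate early genes 9 were higher than in the mature DCs (14.0% over all genes), 2 higher than in the type 1-like DCs, near the 12.6% over all genes, and none higher and 1 lower than in the monocytes. Hspa1a, an inducible heat shock protein, had a UMI in all 13 cells of library 4 (2228 CPM) and in 4 of the other 41 (259.9 CPM without library 4). Of 9 heat shock genes 3 were higher than in the type 1-like DCs, and without library 4 the same 3 were (Hspa1a, Hspa1b and Hsp90aa1). Over all genes 12.6% were higher, and 13.1% without library 4. Outside library 4, however, 32 and 45 of the 85 Hspa1a UMIs came from single cells of library 2. Hsp90aa1 was at 801 CPM over all cells and at 479 CPM without library 2.

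As the study inhibited EZH2, the catalytic subunit of polycomb repressive complex 2, which methylates histone H3 at lysine 27, its genes were also described. Ezh2 was at 54.5 CPM in 13 of the 54 cells (24 UMIs), beside 83.5 CPM in the type 1-like DCs, 15.2 CPM in the monocytes and 63.5 CPM in the mature DCs, and without library 8 it was at 32.8 CPM. Its partners Eed and Suz12 were at 47.7 and 43.1 CPM, and the accessory subunit Jarid2 was at 163 CPM. Kdm6b, a demethylase that removes this mark, was more abundant, at 469.8 CPM in 45 cells, 2.38-fold (2.03 to 2.78) the type 1-like and 1.88-fold (1.63 to 2.17) the monocyte level, and Kdm6a was at 36.3 CPM. Of 9 genes of the complex and its demethylases, 1 was higher (Kdm6b) and 1 lower (Rbbp7) than in the type 1-like DCs, near the shares of 12.6 and 6.88% over all genes. Against the monocytes 3 were higher (Ezh2, Rbbp7 and Aebp2), where 6.81% of all genes were. Cells of treated and control mice are mixed in these values.

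Of 11 genes of the BCL2 family, which set the threshold for cell death, 2 were higher than in the type 1-like DCs and 1 was lower, where the shares over all genes were 12.6 and 6.88%. The higher ones were the survival gene Bcl2 (49.9 beside 10.8 CPM) and the death gene Bcl2l11 (175 beside 48.2 CPM), and Bcl2a1a was lower. Bcl2 was also higher than in the monocytes (18.3 CPM), as was Pmaip1, which encodes the death activator NOXA (227 beside 59.4 CPM, and 131 CPM without library 8). T cells were at 419 CPM of Bcl2.

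Cells just inside and outside the rule are described without a test. The 9 cells with 2 Cd209a UMIs had Clec10a at 364 CPM and H2-Ab1 at 7072 CPM, and 29 barcodes with 1 Cd209a UMI had 157 and 9349.8 CPM. Far more barcodes, 249, met the rule but for Flt3, at 0, so the Flt3+ cells were 17.8% of 303. They had Clec10a at 388 CPM and H2-Ab1 at 8347 CPM, close to the levels with Flt3, while Mgl2 and Ccl17 were at 599.7 and 1050.4 CPM. Between the cells with and without Flt3, 86 of 5209 genes were higher (1.65%) and 106 lower (2.03%) by 2-fold. The rule set aside 10 barcodes for an Epcam UMI, in which Mgl2 was at 1523 CPM and Clec10a at 103 CPM, 5 for Siglech, 5 for Clec9a and 14 for a T cell UMI, and none for Xcr1 or Fscn1. No Cd209a+ Flt3+ cell had a Fscn1 UMI.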

How the data were processed

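The CD45+ cells of 12 tumors were measured by 10x Genomics 3' v3 single-cell RNA-Seq. The authors deposited 1 matrix of UMI counts (31053 genes, 140639 barcodes) without normalization. The submitters' processing notes name Cell Ranger 2.1.1, Seurat and mm10, while the matrix header gives software version 3.0.2. No label ties a library number to a mouse, so the matrix was 1 pooled sample, and EZH2i was not compared with vehicle.

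The limits on genes (200 and 5000) and on mitochondrial UMIs (10%) left 128912 barcodes (91.7%). UMIs were summed over a population and scaled to 1000000 (CPM), with exact Poisson and Clopper-Pearson intervals. Genes with a mean of at least 20 CPM (8.81 UMIs in the cells described) and not used by either rule were compared, and 2-fold or more was counted. A population at 0 was set to 3 counts for a lower bound. Shares across depths were read after thinning each cell to 1000 UMIs. The comparison was tested on simulated data.

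The cells and gene lists were chosen with earlier results of these data known. Named genes were those of the lists, the 10 widest ratios each way among genes of at least 100 CPM with the same direction in every library with 10 cells of both populations (library 4 alone met this), and the 15 most abundant. A further rule on the spread between libraries named none, since no library had 30 of the cells. No doublet caller was run, and an alternative left out the 5% of barcodes with the most UMIs. Ifi30 and Clec7a had no row under these symbols. Identifiers were matched to GENCODE M21 (99.6%), and promoters are from RefSeq (GRCm38.p6). Scripts ran in Python 3.11.15. Arrays were handled with NumPy 2.4.6, intervals with SciPy 1.17.1, tables with pandas 2.3.3 and figures with matplotlib 3.10.9. Some genes of the lists are not reported here by name.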

Additional observations from a re-analysis of the deposited data

How the results depend on the processing

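The share of 0.0419% was 0.0644% with 1 Cd209a UMI allowed, 0.0116% with 2 Flt3 UMIs required, 0.0547% at a mitochondrial limit of 5%, 0.0157% in barcodes thinned to 2000 UMIs and, added after seeing the data, 0.235% without Flt3. It was 0.0349 to 0.0557% with 1 library left out in turn. With 2 Flt3 UMIs, 638 genes were higher and 695 lower than in the monocytes, in place of 350 and 334. They held only 268 of those 350 and 264 of those 334. At a minimum of 100 CPM there were 59 and 120 against the monocytes and 175 and 70 against the type 1-like DCs, since fewer genes were tested. In library 4 alone, the single one with 10 cells of both populations, there were 778 and 836 against the monocytes and 802 lower than in the type 1-like DCs. Larger counts did not mean that the calls over all libraries were kept. Against the monocytes library 4 kept 210 of the 350 higher and 230 of the 334 lower genes. Against the type 1-like DCs it kept 353 of 657 and 214 of 358. Without the C1qa-high cells, also added after seeing the data, 550 were lower than in the monocytes, among them 287 of the 334. With 1 library left out the counts were 322 to 437 and 325 to 391 against the monocytes and 649 to 715 and 346 to 392 against the type 1-like DCs. The causes were otherwise not tested. Of 53 named genes, 36 were at 100 CPM or more, and 32 to 36 under all alternatives run, but the level of 18 moved by over 1.5 times with 2 Flt3 UMIs, of 14 without the C1qa-high cells, of 12 without the 5% of barcodes with the most UMIs, of 11 with 1 Cd209a UMI and of 10 without library 4. In libraries 1 to 6 and 7 to 12 apart, added after seeing the data, class II genes were above the monocytes for 6 of 10 and 9 of 11 (8.13 and 11.6% of all genes). Some single genes changed direction. The C1qa-high cells were left out of the Cd209a+ Flt3+ cells alone, and the type 1-like DCs kept theirs. Without them Ccl8 was at 35.6 CPM, below the type 1-like DCs (166 CPM) and the monocytes (54.4 CPM). C1qc was at 67.6 CPM, below both (427 and 117 CPM), and C1qb at 103 CPM, below both (583 and 265 CPM). Apoe was at 658 CPM and Ftl1 at 2134 CPM, below the type 1-like DCs (2303 and 2777 CPM). Chil3 was at 10.7 CPM (3 UMIs) without these cells and at 12.2 CPM (4 UMIs) without library 4. The type 1-like DCs were at 13.4 CPM over all libraries, and so few UMIs give no direction. With 2 Flt3 UMIs Ccl8 (91.4 CPM), C1qb (379 CPM), C1qc (215.5 CPM), Apoe (1254 CPM) and Ftl1 (2371 CPM) were below the type 1-like DCs. Chil3 was then at 0 CPM, which gives no direction either. Of 10 macrophage genes, 6 were higher than in the type 1-like DCs over all cells and 5 lower in the C1qa-low cells. No paired analysis was possible because no label ties a library number to a mouse or a group. Depth limits single genes: 3 UMIs of the cells are 6.81 CPM.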
